A study of Homo sapiens with 13 samples.

Results

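Transcription starts of long noncoding RNA genes that lay at a peak of an active histone mark were examined in TE-7, an established human esophageal epithelial cell line, with and without interleukin-13 (IL-13). A gene was taken as a member when the deposited peak tables listed it with noncoding (NR_) RefSeq transcripts and no coding (NM_) transcript, and when it was not named as a microRNA, small nucleolar, small Cajal body or U small nuclear RNA gene. By this rule 1251 of 15274 listed genes were members, against 13340 genes with a coding start. Their starts carried 1064 of 13221 H3K4me3 peaks, 1203 of 14280 H3K9Ac peaks and 1348 of 15147 H3K27Ac peaks.

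The rule took a mixed set. By RefSeq gene type (GRCh38.p14), 848 members (67.8%) were long noncoding RNA genes, 295 (23.6%) were transcribed pseudogenes, 48 are now annotated as coding (TUG1 and CPNE1 among them), and 41 could not be matched. By name, 484 were uncharacterized loci with a LOC symbol, 226 were antisense or intronic to a named gene, 197 had a pseudogene-like name, 65 were numbered LINC genes and 10 were SNHG genes, which host small nucleolar RNAs. RNA values were given for 1244 of the 1251, and for 16 of these the RNA table lists a coding transcript as well.

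The cells received IL-13 at 100 ng/ml. RNA was sequenced in untreated cells and in cells treated for 2, 6 or 24 hr, 6 libraries in all. Chromatin immunoprecipitation with sequencing (ChIP-seq) covered H3K4me3, H3K9Ac and H3K27Ac in untreated cells and after 6 hr of IL-13, again 6 libraries. Every group was 1 library, so no comparison has a replicate check, and a line kept in culture stands in for the tissue. Which ChIP-seq library was the treated one is stated neither in headers nor in labels. They are called library 1 and library 2, and differences between them are given without a treatment direction.

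Long noncoding RNA genes are transcribed by RNA polymerase II from promoters that resemble coding promoters, and many lie back to back with a coding gene and share its nucleosome-free region. H3K4me3 marks active promoters, H3K9Ac marks active promoters and nearby nucleosomes, and H3K27Ac marks active promoters and enhancers. Their transcripts are usually less abundant than messenger RNA, and some host small RNAs, scaffold nuclear bodies or act in cis on neighbours. IL-13 is a type 2 cytokine that signals through STAT6 in esophageal epithelium.

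Markers and depth were checked first. All 8 epithelial markers, KRT5, KRT14 and TP63 among them, reached an RPKM of at least 81.7 in each library, where RPKM is the number of reads per kb of gene for a fixed total of mapped reads, and 0 of 5 leukocyte markers reached 1. Of 4 fibroblast markers, 1 reached an RPKM of 1 in each library, COL1A1, at 2.04 to 3.89. Of 3 endothelial markers, 1 did so in a single library, VWF, at 4.21 with IL-13 at 24 hr against 0.943 in that control. Of 8 brain markers, 7 reached an RPKM of 1 in the control at 2 hr and 1 in each of the other 5 libraries. Of 10 genes on a list of brain noncoding RNAs, 2 were members. MIAT stood between 0.0800 and 0.105 RPKM and LINC00461 between 0 and 0.0568 over the 6 libraries. Both are too low to show whether members differ in that control as the brain markers do. The controls at 2 and 6 hr had 359 identical values above 0, 21 of them at members, and no other pair of libraries had any. At 24 hr, steps between the low values of short genes put 1 read in a gene of 1 kb at 0.0737 RPKM without IL-13 and 0.0713 RPKM in the treated library, which gives 13.6 and 14.0 megareads. The most frequent step at 2 and 6 hr was 0.0304 to 0.0318, and it was 0.0318 in both controls of these times. No other pair of libraries had the same step. With equal steps, genes with equal read counts get identical values, so whether these controls share reads cannot be told. Strand use in counting is not given in the sources used here, so an antisense gene cannot be told apart from the coding gene it overlaps.

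Promoter windows from RefSeq (GRCh38.p14), 250 bases before to 50 after a start, were found for 693 members. The 8 windows below show the contrast described next, between starts rich and poor in CpG. They were chosen after their values were seen. Each is written 5′ to 3′ on the strand of its gene, the start is at position 251, and capitals mark letters that match any of 5 motifs searched on both strands: TATAAA, TTC then 4 bases of any kind then GAA (the STAT6 form), TTCNNNGAA (the general STAT form), CCAAT and GGGCGG (the GC box). Gene length, or the spacing of the starts, was the same in both builds for each of them. RAET1E-AS1 (listed as LOC100652739), which lies back to back with LRP11 and antisense to RAET1E, has both kinds of start: the first carried all 3 marks and the second H3K27Ac alone. KCNJ2-AS1 lies back to back with the potassium channel gene KCNJ2, and SBF2-AS1 lies antisense to SBF2.
RAET1E-AS1, first start, chr6:149863248-149863547 plus strand: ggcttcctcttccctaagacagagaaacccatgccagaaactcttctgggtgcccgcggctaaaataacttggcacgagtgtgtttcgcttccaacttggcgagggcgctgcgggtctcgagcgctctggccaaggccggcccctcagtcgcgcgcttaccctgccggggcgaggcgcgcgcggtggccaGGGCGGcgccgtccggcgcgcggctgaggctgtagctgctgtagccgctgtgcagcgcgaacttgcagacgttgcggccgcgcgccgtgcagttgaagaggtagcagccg
RAET1E-AS1, second start, chr6:149889853-149890152 plus strand: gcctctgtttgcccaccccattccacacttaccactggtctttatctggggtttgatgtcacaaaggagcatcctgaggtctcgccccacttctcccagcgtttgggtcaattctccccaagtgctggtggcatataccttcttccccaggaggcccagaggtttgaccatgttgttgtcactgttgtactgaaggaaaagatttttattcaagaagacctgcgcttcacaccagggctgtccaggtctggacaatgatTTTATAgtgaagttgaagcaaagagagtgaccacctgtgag
KCNJ2-AS1, chr17:70169353-70169652 minus strand: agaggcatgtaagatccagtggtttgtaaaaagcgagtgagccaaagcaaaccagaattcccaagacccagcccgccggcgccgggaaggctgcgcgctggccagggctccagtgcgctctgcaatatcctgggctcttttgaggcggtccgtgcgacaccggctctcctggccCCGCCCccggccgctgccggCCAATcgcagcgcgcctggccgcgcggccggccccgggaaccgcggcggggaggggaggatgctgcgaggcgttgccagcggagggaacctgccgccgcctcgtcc
SBF2-AS1, chr11:9758043-9758342 plus strand: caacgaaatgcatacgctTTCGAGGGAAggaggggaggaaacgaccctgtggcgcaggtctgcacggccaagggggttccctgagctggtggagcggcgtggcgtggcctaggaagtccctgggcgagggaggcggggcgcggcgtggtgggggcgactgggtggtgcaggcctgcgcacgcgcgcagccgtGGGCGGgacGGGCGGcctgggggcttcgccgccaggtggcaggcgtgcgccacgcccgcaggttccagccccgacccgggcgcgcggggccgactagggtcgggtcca
LINC01010, listed as LOC154092, first start, chr6:134437466-134437765 plus strand: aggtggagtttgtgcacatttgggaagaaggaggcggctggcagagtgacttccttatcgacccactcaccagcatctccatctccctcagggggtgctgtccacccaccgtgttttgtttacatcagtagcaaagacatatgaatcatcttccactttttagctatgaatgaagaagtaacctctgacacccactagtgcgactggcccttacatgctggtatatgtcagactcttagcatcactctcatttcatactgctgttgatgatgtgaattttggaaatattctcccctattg
LINC01010, second start, chr6:134438140-134438439 plus strand: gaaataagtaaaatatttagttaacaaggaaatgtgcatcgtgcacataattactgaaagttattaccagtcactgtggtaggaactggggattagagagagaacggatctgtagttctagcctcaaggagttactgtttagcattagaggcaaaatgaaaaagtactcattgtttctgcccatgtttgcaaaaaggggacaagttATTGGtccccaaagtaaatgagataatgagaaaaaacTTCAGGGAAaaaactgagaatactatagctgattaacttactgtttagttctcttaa
SNCAIP-AS3, listed as MGC32805, chr5:122479038-122479337 minus strand: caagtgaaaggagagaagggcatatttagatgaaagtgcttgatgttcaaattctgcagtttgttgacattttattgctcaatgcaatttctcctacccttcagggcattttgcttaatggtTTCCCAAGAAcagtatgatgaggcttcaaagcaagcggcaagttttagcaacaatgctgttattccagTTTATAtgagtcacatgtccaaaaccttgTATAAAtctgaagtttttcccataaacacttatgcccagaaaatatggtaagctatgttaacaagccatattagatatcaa
UNC5B-AS1, listed as LOC728978, chr10:71218179-71218478 minus strand: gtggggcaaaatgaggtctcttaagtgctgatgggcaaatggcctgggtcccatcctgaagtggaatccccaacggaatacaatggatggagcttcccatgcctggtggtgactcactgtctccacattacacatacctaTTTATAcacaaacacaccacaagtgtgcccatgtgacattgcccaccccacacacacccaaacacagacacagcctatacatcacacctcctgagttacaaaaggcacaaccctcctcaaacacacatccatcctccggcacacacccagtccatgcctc

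The ratio of observed to expected CpG was 1.06 at the first start of RAET1E-AS1 and 0.163 at the second. It was 0.898 for KCNJ2-AS1 and 0.917 for SBF2-AS1, both of which carried all 3 marks. It was 0.253 and 0.225 at the starts of LINC01010, which carried H3K9Ac and H3K27Ac, and 0.101 for SNCAIP-AS3, which carried H3K27Ac alone. UNC5B-AS1 went the other way, with 3 marks and a CpG ratio of 0.112. UNC5B-AS1, KCNJ2-AS1 and RAET1E-AS1 each share a peak with a coding start, and such a peak cannot be assigned to either gene. SBF2-AS1, LINC01010 and SNCAIP-AS3 share none. GC boxes stood in the first RAET1E-AS1 window, in KCNJ2-AS1 and in SBF2-AS1, and in none of the 5 CpG-poor windows. The TATAAA form stood in the second RAET1E-AS1 window, in SNCAIP-AS3 and in UNC5B-AS1. The STAT6 form stood in SBF2-AS1 and in SNCAIP-AS3, and the general STAT form in the second window of LINC01010.

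Fewer members than coding genes carried all 3 marks: 861 members (68.8%) against 11601 coding genes (87.0%). Marks were counted per gene over all its listed starts. A single mark stood at 240 members (19.2%) and 960 coding genes (7.20%). The commonest single mark was H3K27Ac, listed alone at 160 members (12.8%) and 573 coding genes (4.30%). H3K9Ac with H3K27Ac but no H3K4me3 stood at 127 of 1251 members and 565 coding genes (4.24%). H3K4me3 alone stood at 24 members (1.92%) and 151 coding genes (1.13%). UCA1, a noncoding RNA first described in bladder carcinoma, had 3 marks, but its mean log2 level A was 4.53 for H3K4me3 and 9.17 for H3K27Ac. LINC00152 (now CYTOR) had no H3K4me3 peak and an A of 6.06 for H3K27Ac.

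The number of marks differed with a coding neighbour. A peak was shared with a coding start, with identical values listed at both, for 575 members (46.0%), and such a peak cannot be assigned to either gene. Of these 575, 515 (89.6%) carried 3 marks, against 346 (51.2%) of the 676 members whose peaks were their own. A coding start on the opposite strand lay within 1 kb of 413 members (33.0%), at a median distance of 189 bp, and 385 of them (93.2%) carried 3 marks, against 476 (56.8%) of the other 838. GAS5 and the coding gene ZBTB37 start 368 bp apart, and ZNFX1-AS1 (now ZFAS1) starts 41 bp from ZNFX1. The share with 3 marks was 70.9% of the 848 long noncoding RNA genes and 66.1% of the 295 transcribed pseudogenes, so both kinds lay below coding genes.

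**Figure D1:**
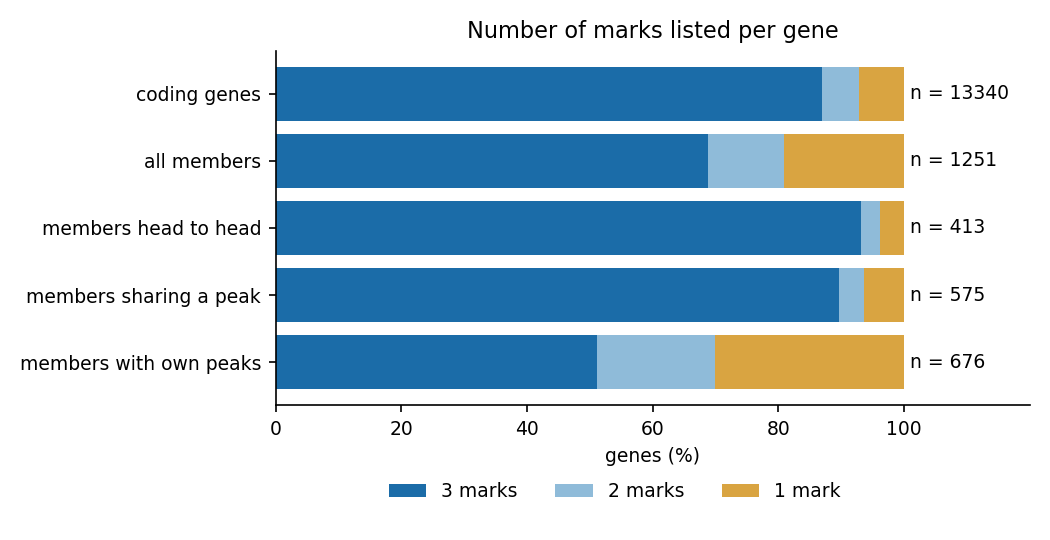
Horizontal bars give the percentage of genes listed with 1, 2 or 3 of the marks H3K4me3, H3K9Ac and H3K27Ac, for coding genes, all members, members head to head with a coding start within 1 kb, members that share a peak with a coding start and members with only their own peaks. Members with their own peaks had 3 marks in 51.2% of cases, and head-to-head members in 93.2%.

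CpG content, which the choice of members did not use, differed with the number of marks. Over 500 members with 3 marks and a window, the median CpG ratio was 0.831 and 80.0% reached 0.6. Over 75 members with 2 marks the median was 0.358 and 24.0% reached 0.6, and over 118 with 1 mark the median was 0.301 and 12.7% did. Among the 80 with H3K27Ac alone, 8.75% did. The same order stood in coding genes, where 84.3% of 8597 with 3 marks, 47.7% of 495 with 2 and 35.1% of 639 with 1 reached 0.6. Against these, 25.6% of all 11462 windows of long noncoding RNA genes in RefSeq did. The RefSeq start can differ from the listed start, and for genes with several windows the one with the lowest coordinate was used. With gene length within 1% in both builds, 79.6% of 406 members with 3 marks and 12.1% of 99 with 1 mark reached 0.6. CpG content also differed with a coding neighbour. Of 383 members that share a peak with a coding start 79.4% reached 0.6, against 41.6% of 310 with their own peaks. The number of marks differed in the same way, as given above, and the part of sharing in the CpG difference between mark numbers was not tested.

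The GC box was present in 65.8% of member windows with 3 marks, 26.7% of those with 2 and 21.2% of those with 1, against 43.8% of all 27305 promoters. TATAAA was present in 7.0%, 9.33% and 15.3%, against 12.1% of all promoters. The STAT6 form was present in 15 of 500, 1 of 75 and 12 of 118 of these windows, against 6.43% of all promoters. The general STAT form was present in 4.20%, 13.3% and 8.47%, against 7.94%, so neither STAT form followed the number of marks. CCAAT differed little, at 34.4%, 30.7% and 33.1%, against 35.6%. Median GC content was 66.0% with 3 marks and 50% with 1, and the part of base composition in these shares was not tested. A match is a description of letters and no evidence of binding.

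**Figure D2:**
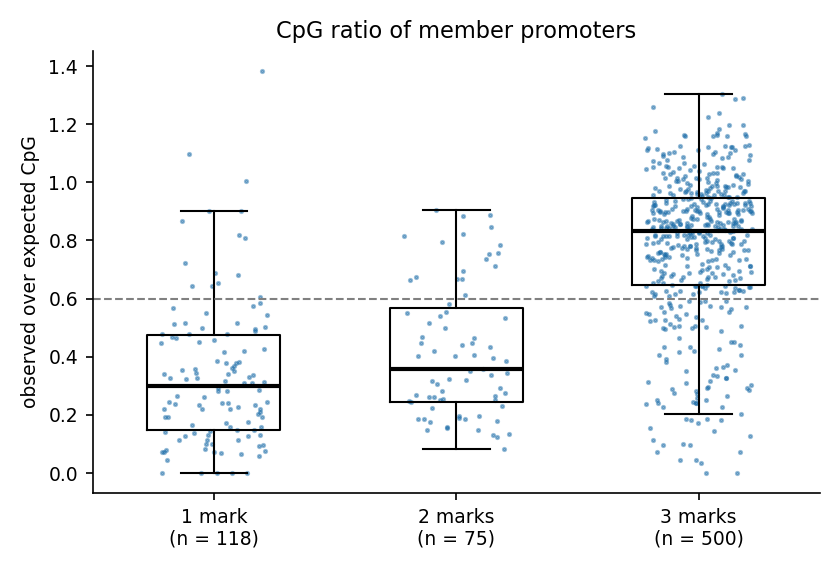
Observed over expected CpG (vertical axis, no unit) of the promoter window of each member with 1, 2 or 3 marks; points are members, boxes span the quartiles with the median as a thick line, whiskers reach the last point within 1.5 box lengths, and the dashed line is at 0.6. The medians are 0.301, 0.358 and 0.831.

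The height of the marks followed the same division. Heights are given as A, the authors' mean log2 level over both libraries of a mark. The median A of members' H3K4me3 peaks was 5.71 where the peak was shared with a coding start and 4.84 where it was not, against 5.66 for all peaks at coding starts. For H3K9Ac these medians were 6.97, 5.44 and 6.72, and for H3K27Ac 6.91, 5.34 and 6.59. Own peaks were thus lower than coding peaks in each mark, and shared peaks were not. The highest H3K4me3 peak at a member was that of LOC388796 (now SNHG17), a small nucleolar RNA host, at 8.60. The pseudogene ROCK1P1 followed at 8.35 and SNHG7 at 8.17. The highest H3K9Ac and H3K27Ac peak was shared by GABPB1-AS1, FLJ10038 (now GABPB1-IT1) and the coding gene GABPB1, at 9.96 and 10.14. LOC100131496 had an H3K27Ac peak of 10.08 and no H3K4me3 peak, and its RNA stayed between 0.0633 and 0.133 RPKM in the 6 libraries.

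RNA from marked starts was much scarcer for members than for coding genes. In the control at 6 hr, the median over 860 members with 3 marks was 0.715 RPKM and 44.7% reached 1 RPKM, against 10.7 RPKM and 88.6% over 11509 coding genes with 3 marks. Members with 2 marks had a median of 0.131 RPKM and those with 1 mark 0.0228 RPKM, and 100 of the latter 236 were listed at 0. In RNA from whole cultures, fewer cells expressing a gene and less RNA per cell cannot be told apart. Long noncoding RNA genes had a median of 0.263 RPKM and transcribed pseudogenes 1.41 RPKM. Pseudogenes can take reads of their near-identical parent genes, so their levels are uncertain.

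Across members, A and RPKM had a Spearman correlation of 0.27 for H3K4me3 (n = 906), 0.33 for H3K9Ac (n = 1054) and 0.36 for H3K27Ac (n = 1152). Among members whose highest peak was at no coding start it was 0.48, 0.47 and 0.42 (n = 383, 514 and 615), and among coding genes 0.53, 0.57 and 0.54. These are descriptions over genes of the same libraries, and genes are not replicates. In head-to-head pairs where both genes reached 1 RPKM at 6 hr, the member had the lower control level in 111 of 133. The medians there were 2.47 RPKM for members and 12.1 RPKM for their coding partners.

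**Figure D3:**
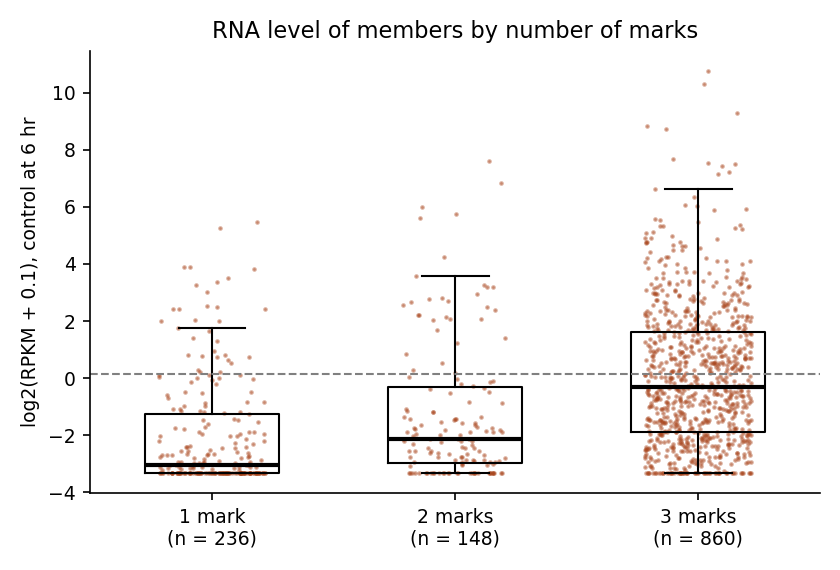
Level of each member in the control at 6 hr as log2(RPKM + 0.1), by the number of marks over all its listed starts. Points are members, boxes span the quartiles with the median as a thick line, and whiskers reach the last point within 1.5 box lengths. The dashed line is at an RPKM of 1. The medians in RPKM are 0.0228, 0.131 and 0.715.

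A few members were abundant. H19, an imprinted RNA, was the most abundant in the control at 6 hr. It stood at 1813 and 1693 RPKM without and with IL-13 at 2 hr, 1737 and 1550 at 6 hr, and 1487 and 783 at 24 hr. The lowest of the 6 is the treated library at 24 hr. The log2 ratio there was -0.92, under 2-fold in size, and the authors' deposited table gives an adjusted p of 0.658. C17orf76-AS1 (now SNHG29), ZNFX1-AS1 and GAS5, all small nucleolar RNA hosts, stood at 422, 172 and 181 RPKM in that control. The other leading members were pseudogenes of abundant proteins: RPL13AP5 at 1249 RPKM, HNRNPA1P10 at 627, RPL21P28 at 461, RPSAP58 at 204, ANXA2P2 at 197 and H3F3AP4 at 184. These 6 are near-identical copies of abundant genes, and reads of the copies cannot be told apart by the values.

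IL-13 was first compared with control by counting genes that differed at least 2-fold on log2(RPKM + 0.1), with at least 1 RPKM in whichever library was higher. At 2 hr, 1 of 457 members was higher and 0 were lower, where 1.00% of all compared genes passed, 0.658% as higher and 0.342% as lower. At 6 hr, 1 of 464 was higher and 1 lower, where 1.07% of all genes passed, 0.753% as higher and 0.318% as lower. At 24 hr, 5 of 555 were higher and 10 lower, where 2.16% of all genes passed, 0.886% as higher and 1.27% as lower. As percentages the members stood at 0.219%, 0.431% and 2.70%, and coding genes at 0.554%, 0.655% and 1.45%. The median log2 ratio of members was 0.02, -0.00 and 0.02, and that of all genes 0.00, -0.00 and 0.02. No member passed in the same direction at more than 1 time. Without members that share a peak with a coding start, 6 of 320 passed at 24 hr (1.875%).

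SERTAD4-AS1, antisense to the SERTA-domain gene SERTAD4, (chromosome 1, start 210407466, minus strand, hg19), was the member with the largest ratio at 24 hr among those measured above 0 in both libraries. It stood at 2.32 and 3.07 RPKM without and with IL-13 at 2 hr, 1.53 and 2.84 at 6 hr, and 0.461 and 2.94 at 24 hr. The treated libraries stayed level while the controls became lower with time, and all 3 treated values lie above all 3 control values. The log2 ratios were 0.39, 0.85 and 2.44, and only the last passed. The adjusted p for 24 hr in the authors' deposited table was 0.0949. SERTAD4, whose start lies 1271 bp away, stood at 5.81 and 11 RPKM at 2 hr, 3.62 and 7.08 at 6 hr, and 3.63 and 9.66 at 24 hr. Its treated libraries were also the higher ones at each time.

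UCA1 (chromosome 19, start 15939757, plus strand, hg19) had the opposite order. It stood at 24.1 and 20.9 RPKM without and with IL-13 at 2 hr, 22.1 and 15 at 6 hr, and 24.5 and 12.0 at 24 hr. The 3 controls stayed within 22.1 to 24.5, and each treated library was below all of them. The log2 ratios were -0.21, -0.56 and -1.03. In the authors' deposited table UCA1 had an adjusted p of 0.0026 at 24 hr and 1 at 2 and 6 hr. The summed level of the 8 epithelial markers was also lowest with IL-13 at 24 hr, at 2852 RPKM against 3787 to 4136 in the other libraries. Of these markers KRT5 differed most in RPKM between the libraries of 24 hr, at 2199.8 and 1322.7 without and with IL-13. In proportion KRT14 differed most, at 287 and 137. KRT8 stood at 495 and 353, SFN at 406 and 287, and CDH1 at 98.2 and 90.0. TP63 was nearly level at 230.1 and 228, while EPCAM at 162 and 182 and KRT18 at 241 and 252 were higher with IL-13. The part of these levels in the result was not tested.

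PP7080 (now SLC9A3-OT1, chromosome 5, start 473080, minus strand, hg19) stood at 31.7 and 51.8 RPKM at 2 hr, 40.4 and 54.1 at 6 hr, and 32.8 and 54.7 at 24 hr. All treated libraries were above all controls, with log2 ratios of 0.71, 0.42 and 0.74, under the 2-fold limit each time. The authors' deposited table gives an adjusted p of 0.078 at 24 hr. PP7080 also had 1 of the 5 highest H3K9Ac peaks at a member, with an A of 9.50, and M values of -0.31, -0.27 and -0.55 for H3K4me3, H3K9Ac and H3K27Ac. M is the authors' rescaled log2 ratio of library 1 over library 2.

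The other members past the rule are given by time. MGC16121 (now MIR503HG), which hosts microRNAs, was the one member higher at 2 hr, at 0.487 and 1.11 RPKM without and with IL-13. RMRP, the RNA of the RNase MRP enzyme, was lower at 6 hr, at 5.11 and 2.37 RPKM. At 2 hr it stood at 1.41 and 2.30, and at 24 hr at 3.85 and 4.79, so its treated library was lower at 6 hr only. DYX1C1-CCPG1, a read-through of DYX1C1 and CCPG1, was higher at 6 hr, at 0.716 and 2.31 RPKM. Higher at 24 hr were also LOC388906 at 0.356 and 1.03 RPKM, LOC100505633 (now LINC01133) at 1.04 and 2.44, ALOX15P1 at 0.548 and 1.27, and OR2A20P, listed at 0 in the control and at 1.45 with IL-13. ALOX15P1 is a pseudogene of ALOX15, the lipoxygenase that IL-13 induces in airway epithelium.

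Members lower at 24 hr included 3 of uncertain assignment. SEPT5-GP1BB and RAD51L3-RFFL are read-throughs that overlap their component genes, and stood at 1.41 and 0.360 RPKM and at 2.06 and 0.380 RPKM. FABP5P3, a pseudogene of FABP5, stood at 1.03 and 0.334. ANKRD30BL, now annotated as coding, stood at 1.03 and 0.300. CECR5-AS1 (now HDHD5-AS1), back to back with a coding gene, stood at 1.65 and 0.553. Going by the authors' deposited table, 1 member had an adjusted p under 0.05 at 6 hr, where 0.351% of all 23637 genes did, and 4 did at 24 hr, where 0.592% did. The 4 were RAD51L3-RFFL (0.00038), UCA1, OR2A20P (0.032) and PLAC2 (0.037), and the 1 at 6 hr was RAD51L3-RFFL (0.015). PLAC2 stood at 22.2 and 12.9 RPKM at 24 hr and at 4.90 to 6.06 RPKM in the 4 libraries of 2 and 6 hr.

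Among lists of known noncoding RNAs, drawn up from general knowledge, few members passed. With 1.00%, 1.07% and 2.16% of all compared genes past the rule at the 3 times, a count of 0 in lists of this size says nothing particular about them. Of 14 small nucleolar RNA hosts, 0 passed at any time, with median log2 ratios of -0.01, -0.01 and 0.28. At 24 hr 13 of the 14 ratios were above 0, where all compared genes had a median of 0.02. GAS5 stood at 382 and 468 RPKM there, SNHG1 at 84.0 and 121, SNHG5 at 39.7 and 55, and SNHG9, the exception, at 2.53 and 1.84. These genes carry introns that encode small RNAs, and the spliced RNA of some such hosts is rapidly turned over. Turnover was not measured here.

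Of 18 compared members on the list of widely studied noncoding RNAs, 0 passed at any time. OIP5-AS1 stayed between 36.0 and 41.0 RPKM in the 6 libraries, and TUG1 between 25.2 and 33.7. KCNQ1OT1, an imprinted antisense RNA, stood between 0.969 and 1.81. On the HOX cluster list 10 members were marked and 0 passed, at 5 to 7 compared. HOTAIR, transcribed from the HOXC cluster, stood between 1.21 and 3.67 RPKM, and HOTAIRM1, from the HOXA cluster, between 2.68 and 6.78, and both libraries of 24 hr were the highest for each. Their H3K27Ac A ran from 3.15 at HOXD-AS1 (now HAGLR) to 9.40 at HOXA-AS4 (now HOXA10-AS), with a median of 8.30 against 6.62 over all members with the mark, and 9 of the 10 peaks were shared with a coding start.

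On the list of immune and cytokine loci 9 members were marked and 0 of 5 or 6 compared passed. PSMB8-AS1 (listed as LOC100507463), at an immunoproteasome gene, stood at 1.39 and 1.58 RPKM at 2 hr, 1.25 and 1.82 at 6 hr, and 4.62 and 5.50 at 24 hr. GATA3-AS1 (listed as FLJ45983), at the type 2 helper cell factor gene GATA3, had all 3 marks but at most 0.0797 RPKM. On the squamous and esophageal list 1 of 5 passed, UCA1, lower at 24 hr. DANCR, which restrains differentiation of epidermal progenitors, stood at 20.1 and 18.1, 26.4 and 25.6, and 12.4 and 13.0 RPKM at the 3 times. On the list of short structured RNAs 1 of 3 compared passed at 6 hr, RMRP. RPPH1, the RNA of RNase P, stood at 5.65 and 3.11 RPKM there.

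A coding start lay within 20 kb of 726 members, and the closest coding gene of these passed the 2-fold rule as higher for 2 members at each time, and as lower for 2 at 2 hr, 0 at 6 hr and 7 at 24 hr. These were 0.716%, 0.358% and 1.55% of the 559, 558 and 580 members whose neighbour could be compared, where 0.554%, 0.655% and 1.45% of all compared coding genes passed. With so few passing, these shares lie near those of coding genes in general, and the genes named next are examples. HAS2-AS1 starts 2044 bp from HAS2, a hyaluronan synthase, which stood at 30.7 and 80.5 RPKM at 2 hr, 7.77 and 43.0 at 6 hr, and 2.79 and 7.67 at 24 hr. HAS2-AS1 itself stood at 0.630 and 1.03, 0.589 and 0.955, and 0.425 and 0.685 RPKM, so the treated library was higher at each time. UNC5B-AS1 starts 5693 bp from UNC5B, a netrin receptor. UNC5B stood at 5.66 and 14.7 RPKM at 6 hr, while UNC5B-AS1 (LOC728978) stood at 0.451 and 0.221. At IGF2-AS, IGF2 stood at 46.0 and 21.6 RPKM at 24 hr and IGF2-AS at 0.859 and 0.374. WTAPP1 lies 3048 bp from the matrix metalloproteinase gene MMP10, which stood at 52.9 and 25.3 RPKM at 24 hr. LOC100131208 lies antisense to SNAP25, a synaptic gene, and was listed at 0 in all 6 libraries. SNAP25 was at 3.57 RPKM in the 2 hr control and no higher than 0.0133 in the others. It is counted among the neighbours lower at 2 hr, and it is also 1 of the brain markers that reached an RPKM of 1 in that control.

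Between the ChIP-seq libraries, a peak was counted as different when M was 1 or more, or -1 or less, and the higher of the levels that M and A give reached 30. For H3K4me3, 55 of 741 member peaks were higher in library 1 and 47 in library 2, where 10.8% of all peaks passed, 6.02% for library 1 and 4.82% for library 2, and with M centred on its median over all peaks the split turned to 47 and 53. For H3K9Ac, 40 of 921 were higher in library 1 and 36 in library 2, where 7.39% of all peaks passed, 3.79% for library 1 and 3.59% for library 2, and centred in the same way the split was 29 and 42. For H3K27Ac, 79 of 1018 were higher in library 1 and 41 in library 2, where 8.75% of all peaks passed, 5.04% for library 1 and 3.71% for library 2. Centred in the same way, the H3K27Ac split was 68 and 45. The members' shares were 13.8%, 8.25% and 11.8%. Own H3K27Ac peaks passed in 17% of 460 cases and peaks shared with a coding start in 7.53% of 558. For H3K9Ac these shares were 11.3% and 6.27%, and for H3K4me3 15.4% and 13.0%. Own peaks were also lower in A, as given above, and the part of that in these shares was not tested.

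The H3K27Ac peak with the lowest M was that of MGC32805 (SNCAIP-AS3; chromosome 5, start 121814782, minus strand, hg19), whose CpG-poor window is shown above. Its M was -4.14, with a level of 5.94 in library 1 and 105 in library 2, and a −log10 p of 23.3 in the authors' deposited table. It lies 166962 bp from the closest coding start, and its RNA stood at 0.770 and 0.506 RPKM at 6 hr and 2.42 and 3.10 at 24 hr. The second start of RAET1E-AS1 (LOC100652739), also CpG-poor, had 3 H3K27Ac peaks, 1 of them with an M of -2.92, while the CpG-rich first start had -0.59. LOC100506795 (now LINC01354) and LOC643441 followed at -2.44 and -2.39, and their RNA was listed at 0 in all 6 libraries. KCNJ2-AS1 had an H3K27Ac M of -2.08, with levels of 18.0 and 76.1, beside H3K4me3 and H3K9Ac values of -0.28 and -0.48.

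LOC154092 (LINC01010; chromosome 6, starts 134758854 and 134759528, plus strand, hg19) had an H3K27Ac M of -1.91, with levels of 28.0 and 105 and a −log10 p of 15.7 in the authors' deposited table. Its H3K9Ac peak was low, with an A of 4.02 and an M of 0.42. The closest coding gene, SGK1, a kinase induced by serum and glucocorticoids, starts 119658 bp away and stood at 8.45 and 27.7 RPKM at 6 hr. At HAS2-AS1 the H3K4me3 M was -1.14, beside -0.36 for H3K9Ac and -0.16 for H3K27Ac. At SERTAD4-AS1 M was -1.07 for both H3K4me3 and H3K9Ac and -0.25 for H3K27Ac, all from peaks listed for SERTAD4 too. Because library order is not stated, these signs are not read as gain or loss with IL-13.

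At the other end, LINC00574 had an H3K27Ac M of 4.0 with levels of 52.4 and 3.27, LOC100507091 (now PITPNM2-AS1) 2.73, ARMCX4 2.55, OPN5 2.51 and STARD13-AS2 2.34. The peak of STARD13-AS2 was the highest of these, with levels of 198 and 39.1. Genes now annotated as coding, such as ARMCX4, are among these members. LOC100506939 (now PRKG1-AS1) starts 153 bp from DKK1, a secreted Wnt inhibitor, and shares its peaks. Its start has 2 peaks each of H3K27Ac, with an M of 0.97 and 1.04, and of H3K4me3, with -0.07 and 1.18. DKK1 stood at 115 and 58.6 RPKM at 6 hr. LOC286467 (now FIRRE), an X-linked nuclear RNA, had an H3K4me3 M of 2.5.

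Of 288 member starts with a peak past the rule, 13 had peaks of different marks that passed in the same direction and 8 in opposite directions, with RCAN3AS counted in both. Over the 3749 such starts of all genes these numbers were 192 and 181, with 24 in both. SERTAD4-AS1, PRKG1-AS1, FIRRE, RAB11B-AS1 and LOC100129518 (now SOD2-OT1) were among the former, and UNC5B-AS1 (LOC728978) and LINC00482 among the latter. A start can hold several peaks of a mark, and at STARD13-AS2 a second H3K27Ac peak had an M of -1.43. Signs of different marks can be compared only if the libraries of each mark were taken in the same order. Members with an H3K27Ac M of -1 or lower had a median RNA log2 ratio of 0.04 at 6 hr (n = 10), those between -1 and 1 had -0.00 (n = 379) and those at 1 or higher -0.03 (n = 23).

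**Figure D4:**
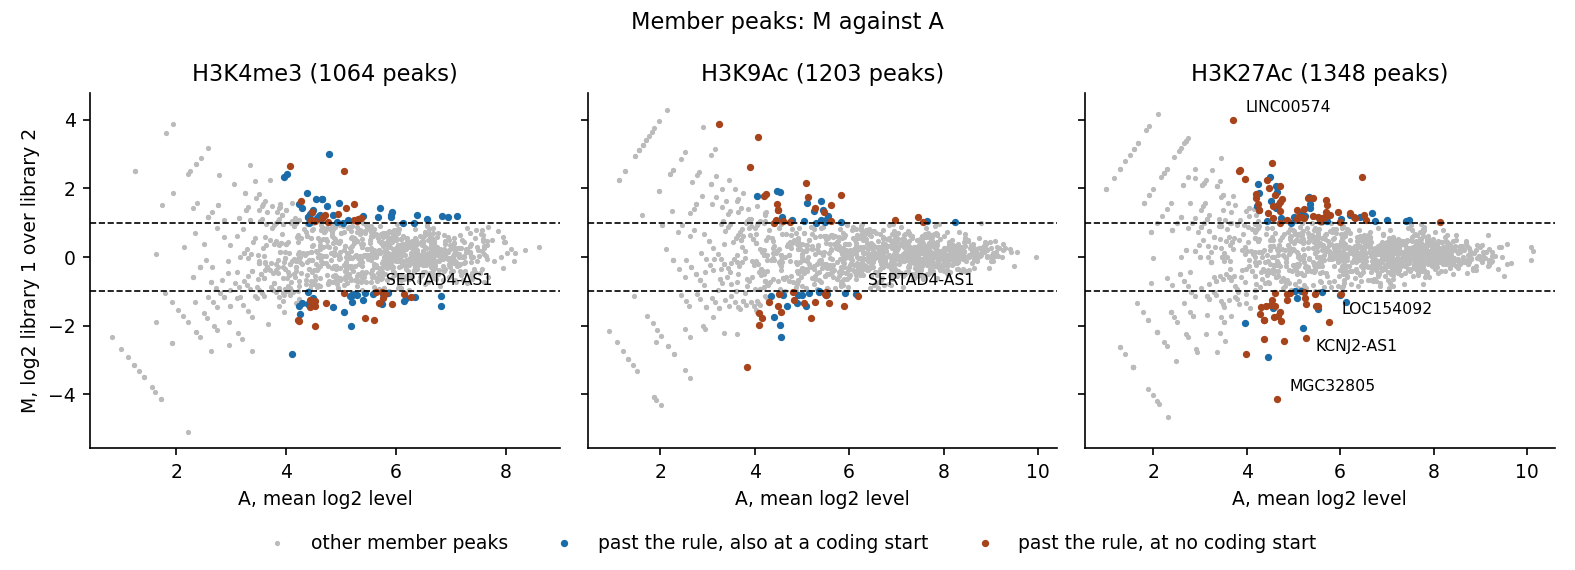
M, the log2 ratio of library 1 over library 2, against A, the mean log2 level, for each member peak of H3K4me3, H3K9Ac and H3K27Ac; grey points did not pass the rule, coloured points had M of at least 1 in size (dashed lines) and a level of at least 30. LINC00574 and MGC32805 stand at the ends of the H3K27Ac panel, at 4.0 and -4.14.

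Untreated libraries of different times were compared by the same rule, and these comparisons share libraries with those above. From the control at 2 hr to that at 6 hr, 4 of 458 members were higher and 3 lower. Of all genes 2.56% passed, 0.200% as higher and 2.36% as lower. Whether these controls share reads cannot be told, as given above. From 6 to 24 hr, 159 of 558 were higher and 27 lower, where 22.3% of all genes passed, 16.2% as higher and 6.09% as lower. As percentages of members these were 28.5% and 4.84%. Genes as a whole had shifted, with a median log2 ratio of 0.23, and that of members was 0.53. Relative to the shift, 106 of the 558 members were higher and 39 lower. Of all 12587 compared genes, 1436 were higher and 1191 lower in the same way. In the treated libraries from 6 to 24 hr, 146 of 546 were higher and 21 lower, where 19.9% of all genes passed, 14.9% as higher and 5.01% as lower. The RNA columns of 24 hr carry a number and a tag in their names that the other columns lack, whose meaning is not stated, and the step between low values was larger there. Time and such differences between libraries cannot be told apart.

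Examples of members that were higher at 24 hr follow. NEAT1, the scaffold of paraspeckles, stood at 19.8 and 20.1 RPKM at 2 hr, 22.4 and 22.5 at 6 hr, and 98.9 and 81.4 at 24 hr. MALAT1, a nuclear speckle RNA, stood at 4.18 and 5.82, 4.16 and 4.67, and 12.3 and 9.23. For both, each library of 24 hr was above all 4 earlier ones. ZNFX1-AS1 stood at 255 and 251, 172 and 179, and 474 and 534 RPKM, and TP53TG1 at 20.5 and 22.6, 17.1 and 18.5, and 46.8 and 45.5. SBF2-AS1 stood at 1.31 to 1.75 RPKM in the 4 earlier libraries and at 16.7 and 18.6 at 24 hr. UNC5B-AS1 (LOC728978) stood at 0.221 to 0.861 in the earlier libraries and at 15.4 and 10.8 at 24 hr.

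Members that were lower at 24 hr included LINC00152, at 72.0 and 70.9, 49.2 and 41.6, and 24.0 and 23.5 RPKM. Its libraries fell into 3 levels by time, with little difference between treated and untreated ones. DANCR, whose values are given above, was also lower in the control at 24 hr than at 6 hr, with a log2 ratio of -1.08. IL1R2, which encodes a decoy receptor for interleukin-1 and is listed here by a noncoding transcript, stood at 3.04 RPKM in the control at 6 hr and was listed at 0 in that at 24 hr. SERTAD4-AS1 was also lower in the control at 24 hr, while the treated library was not, as given above.

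**Figure D5:**
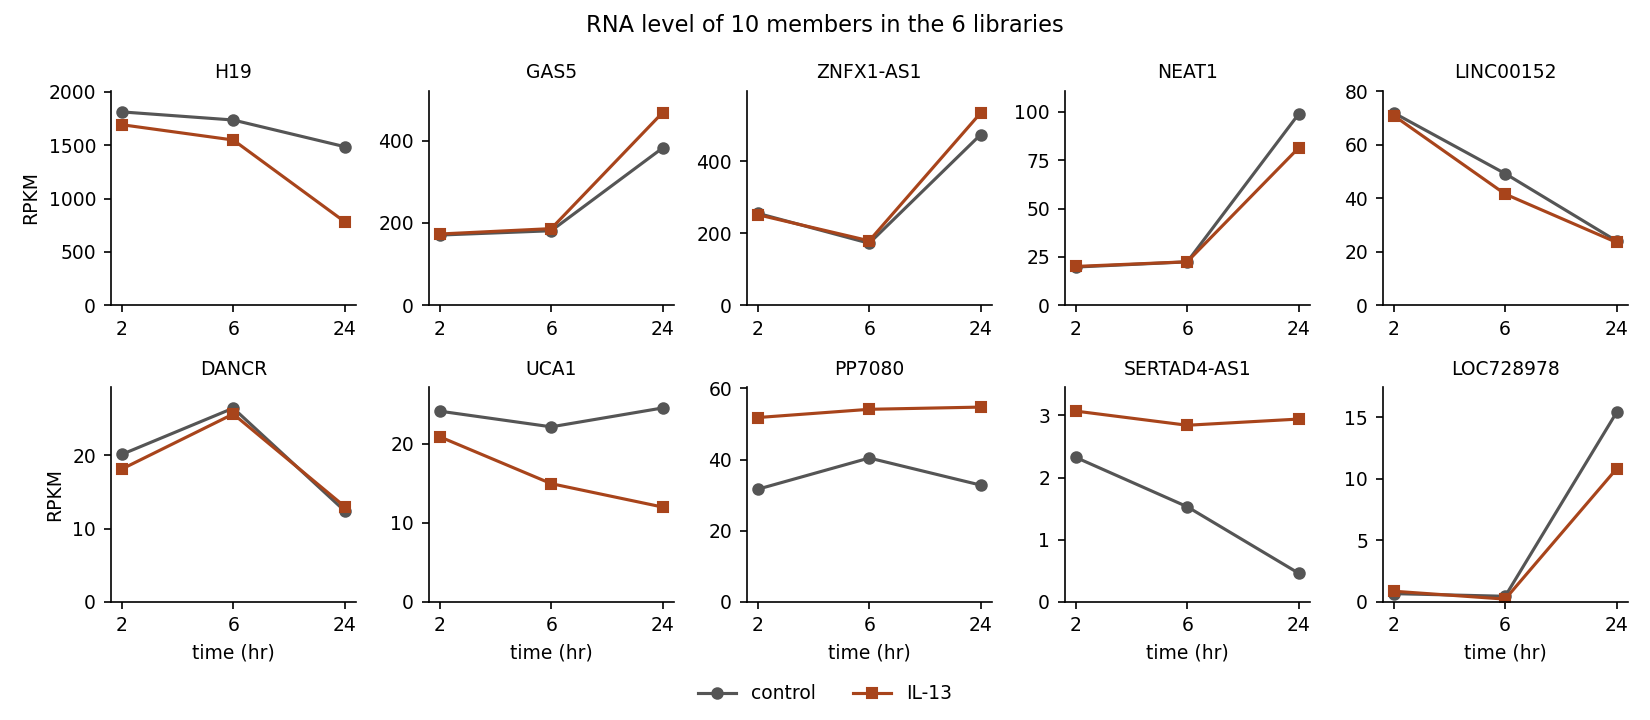
RPKM (vertical axes, each from 0) of 10 members against time in hr, with grey circles for control and red squares for IL-13 libraries, 1 library per point. NEAT1, GAS5 and ZNFX1-AS1 are higher at 24 hr in both, LINC00152 is lower in both, and UCA1, PP7080 and SERTAD4-AS1 have their treated and untreated libraries apart at each time.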

How the data were processed

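RNA-seq and ChIP-seq libraries of TE-7 cells were analysed from tables as deposited. The authors deposited RPKM and adjusted p-values for 23637 genes. For each mark the deposited tables give M and A, both log2 values, and a −log10 p-value at hg19 transcription starts. The submitters' processing notes name TopHat2 2.0.9, Bowtie 1.0.0, MACS2 2.0.10.20130712 and DESeq. Not given in the sources used here: library strandedness, read counting and the order of the ChIP-seq libraries. Since that order is needed to read them, 6 raw-read columns were left out, as was the input library. Plus-strand starts in the peak tables count from 0 and were shifted to count from 1.

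The members and lists were chosen with earlier results of these data known. Log2 ratios were taken on log2(RPKM + 0.1), which understates changes of low genes. Identical values at starts up to 20 kb apart were taken as the same peak. With 1 library per group no test was run. The 2-fold rule and the counting of shared peaks were tested on simulated data. Depth at 24 hr was 13.6 and 14.0 megareads. Members named are the 5 with the largest and smallest ratio past the rule at each time, and the 5 highest and lowest M and highest A per mark. Also named are the 10 most abundant, those past a rule repeatedly, and up to 8 per list. Others were chosen after their values were seen (SBF2-AS1, LOC728978, LOC154092, KCNJ2-AS1, HAS2-AS1, IL1R2 and members beside coding genes past the rule). Not every member the rule takes is described. Current names came from RefSeq (GRCh38.p14), matched for 1210 members. Alternatives varied the pseudocount, the RPKM and level minimums, the fold, gene length, centring, peak sharing and gene type. Python 3.11.15, pandas 2.3.3, NumPy 2.4.6, SciPy 1.17.1 and matplotlib 3.10.9 were used.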

Additional observations from a re-analysis of the deposited data

Results flagged for a closer look

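RAD51L3-RFFL, a read-through of RAD51L3 (RAD51D) and RFFL, had ratios of opposite direction at different times. It stood at 0.109 and 0.908 RPKM without and with IL-13 at 6 hr, a log2 ratio of 2.27, and at 2.06 and 0.380 RPKM at 24 hr, a log2 ratio of -2.17. At 2 hr it stood at 0.846 and 0.431 RPKM. In the authors' deposited table its adjusted p was 0.015 at 6 hr and 0.00038 at 24 hr. The difference between times was not tested, since each value is 1 library. Its reads overlap those of its component genes.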

How the results depend on the processing

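No paired analysis was possible because the groups compared share only 1 replicate number. A fit of treatment over the 3 times, with time as a term, was not run, since it would take times as replicates. Whether the controls of 2 and 6 hr share reads also cannot be told. Of 59 alternative counts, 25 lay within 1.5 times the reported count, and 15 of 15 alternative medians moved by less than 0.1. The members past the RNA rule, 1 at 2 hr, 2 at 6 hr and 15 at 24 hr, became 0, 0 and 3 with a pseudocount of 1, 4, 7 and 24 with a minimum RPKM of 0.5, and 28, 29 and 75 with none. A minimum RPKM of 2 gave 0 at 2 hr and 6 at 24 hr, and a pseudocount of 0.01 gave 2 at 2 hr. At 6 hr, 1 remained with genes of at least 300 bp, 1 with members sharing no peak with a coding start and 1 with long noncoding RNA genes only, since RMRP drops out. At 24 hr the last 2 settings gave 6 and 8. Between controls the long noncoding RNA genes gave 3 from 2 to 6 hr, and members with their own peaks 103 from 6 to 24 hr. Fewer members are compared in these subsets. For H3K4me3, H3K9Ac and H3K27Ac, a minimum level of 15 gave 164, 140 and 191 peaks, a level of 60 gave 39, 33 and 49, a 1.5-fold limit gave 270, 209 and 251, a 3-fold limit 19, 22 and 40, and own peaks only 37, 41 and 78, against 102, 76 and 120. The gene type and the settings for the controls were chosen after seeing the data. Depth limits RNA below 1 RPKM, where most members lie.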
